A study of Mus musculus with 24 samples.

Results

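*Mc4r*, *Sla* and *Mpped1* were 3 of the 54658 genes in the expression table, and they were grouped because their level was lower in the E14.5 cortex of *Cep135* mutant embryos than in that of control embryos. They were chosen by the values of that contrast, so their E14.5 genotype difference is described here without a test. In every E14.5 mutant cortex each gene was below every E14.5 control cortex, with mean levels at 27.4% of control for *Mc4r*, 33.3% for *Sla* and 50.3% for *Mpped1*. As averages over both genotypes, *Mc4r* and *Mpped1* rose between E11.5 and E14.5. *Sla* was also higher at E14.5, which is given without a test, and all 3 fell when E14.5 cortical cells were put into culture. Their genotype difference did not pass the test at E11.5, in 12 h cultures or in 24 h cultures.

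*Mc4r* encodes the melanocortin 4 receptor, a Gs-coupled receptor for α-MSH, a peptide cut from the precursor *Pomc*, and it is best known from the hypothalamus, where it lowers food intake. *Sla* encodes the Src-like adaptor, a small protein with SH3 and SH2 domains that recruits *Cbl* ubiquitin ligases to activated tyrosine kinase receptors and to the T cell receptor and so dampens their signal. *Mpped1* encodes a protein with a metallophosphoesterase domain whose messenger RNA is found mainly in brain. The cortical wall at these ages builds up glutamatergic projection neurons: apical progenitors line the ventricle, intermediate progenitors divide above them, and the newborn neurons migrate outward to form the cortical plate.

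RNA had been measured by 3′ sequencing in 24 libraries, with 3 mutant and 3 control embryos in each of 4 settings. Mutants were labelled *Cep135* (-/-) and controls *Cep135* (+/+), mutants carried a constitutive CRISPR/Cas9 deletion in the gene of a centriole protein, and no animal received a drug. The settings were E11.5 cortex (mutants A, B and C, controls D, E and F), E14.5 cortex (mutants 1, 2 and 6, controls 3, 4 and 5), and cells of those same 6 E14.5 cortices, from the dorsal telencephalon, kept as incipient neurospheres for 12 h or 24 h. The cultures are therefore separate libraries but not separate embryos. The label of the cortex of mutant 6 gives both E11.5 and E14.5 as its age, and it was placed at E14.5 by its title and source. Each replicate was 1 embryo, and E11.5 and E14.5 embryos carried different name prefixes, so that age and whatever the prefix marks cannot be told apart. For E11.5 mutants B and C the prefix in the title differs by 1 letter from that in the description and the data column.

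Libraries held 4732781 to 11645213 reads on genes, and every value below is a normalized read count, the authors' count divided by a size factor for the library. In each library 1 read was worth 0.645 to 1.69 units. All 20 genes of the projection neuron list were measured in every setting, and the cultures, labelled as cortical neural progenitors, held both these and the 10 apical progenitor genes, while the summed level of T cell and thyroid markers was 0 to 13.2. *Cep135* itself was at 171 to 376 in the 24 libraries, but the reads come from the 3′ end of the message and the deletion lies near its start, so this level does not check the label. Embryo sex was called from the RNA, by the level of *Xist* against that of genes on the Y chromosome. By this call the controls at E14.5 and in both cultures were all male and the mutants were 2 female and 1 male. At E11.5 there were 2 females among mutants and 1 among controls.

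In the mouse genome (GRCm38, GENCODE vM21) *Sla* (ENSMUSG00000022372) lies on the minus strand of chromosome 15 from 66780819 to 66831829, inside the span of *Tg*, the thyroglobulin gene, which runs on the opposite strand from 66670753 to 66850721. The reads were counted by strand, and *Tg* itself was at 0 to 4.30 in the 24 libraries. *Mpped1* (ENSMUSG00000041708) is on the plus strand of chromosome 15 from 83779467 to 83858494, with 11 annotated transcripts. RefSeq (GRCm38.p6) gives it a pair of start sites, at which the windows of 250 bases before and 50 bases after the start read 5′ to 3′ on the plus strand as follows. They are shown because they differ sharply in base composition, at 89.3% and 47.3% G and C against a median of 52.7% over 32851 promoter windows of that length.
Mpped1, chr15:83779773-83780072: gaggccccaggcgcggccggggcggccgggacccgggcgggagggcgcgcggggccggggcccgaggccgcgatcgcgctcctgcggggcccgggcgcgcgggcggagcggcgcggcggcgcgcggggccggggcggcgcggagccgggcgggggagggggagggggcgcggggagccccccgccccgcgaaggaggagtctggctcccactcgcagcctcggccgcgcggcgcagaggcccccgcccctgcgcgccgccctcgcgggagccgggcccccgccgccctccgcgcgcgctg
Mpped1, chr15:83784579-83784878: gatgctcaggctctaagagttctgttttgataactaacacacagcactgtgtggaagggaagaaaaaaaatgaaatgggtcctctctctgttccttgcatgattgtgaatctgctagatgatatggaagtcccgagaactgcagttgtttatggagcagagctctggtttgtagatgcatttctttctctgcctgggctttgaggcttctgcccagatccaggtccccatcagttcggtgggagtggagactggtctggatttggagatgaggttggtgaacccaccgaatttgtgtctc
Searched on both strands, neither window held the E-box motifs CAGATG or CAGCTG or the cAMP response motif TGACGTCA, which were present in 17.2%, 16.3% and 1.79% of the 32851 windows, and which would have been printed in capitals. This says only that these letters are not in these windows. Because 3′ reads do not show which start was used, no level can be given per start site.

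**Figure D1:**
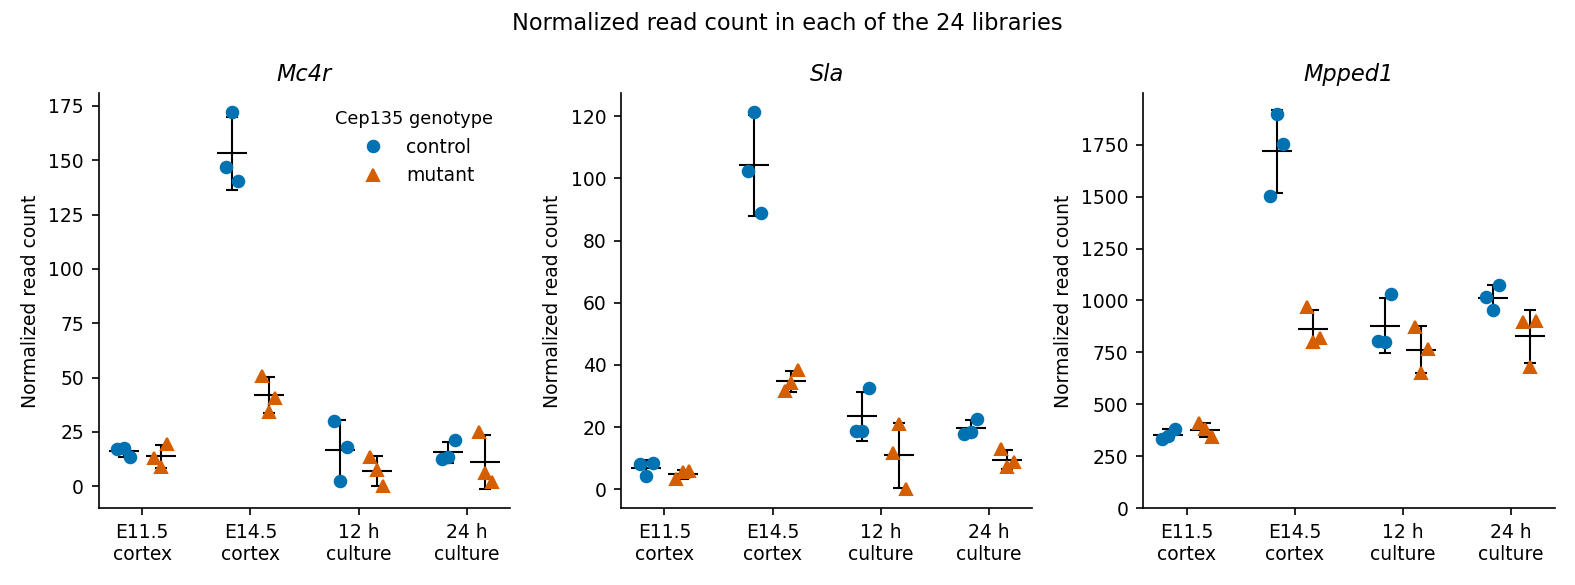
Normalized read count (linear axis) of *Mc4r*, *Sla* and *Mpped1* in each of the 24 libraries, by setting, with controls as circles and mutants as triangles; the horizontal bar is the mean and the whiskers are 1 SD (n = 3). The E14.5 control cortices stand highest for each gene, at 140 to 172, 88.9 to 121 and 1503 to 1896.

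The receptor gene *Mc4r* was low in E11.5 cortex and highest in control cortex at E14.5. It (ENSMUSG00000047259) has 1 exon, on the minus strand of chromosome 18 from 66857704 to 66860506. At E14.5 it was at 147, 172 and 140 in controls 3, 4 and 5, and at 50.8, 34.2 and 40.7 in mutants 1, 2 and 6. The groups were far apart, the highest mutant being below the lowest control by more than the range of either group. The means were 153 ± 16.7 in controls and 41.9 ± 8.36 in mutants (SD, n = 3 each), a log2 difference of -1.86 with a standard error (SE) of 0.206. The reads behind these values were 125 to 237 in controls and 31 to 52 in mutants. The adaptor gene *Sla* was at 102, 121 and 88.9 in controls 3, 4 and 5 and at 31.6, 34.2 and 38.4 in mutants 1, 2 and 6. Again no mutant came near the controls, and the mutants lay close together. The means were 104 ± 16.2 and 34.7 ± 3.40, a log2 difference of -1.55 (SE 0.212). *Mpped1*, the gene with the deepest coverage, was at 1503, 1896 and 1755 in controls 3, 4 and 5 and at 970, 802 and 821 in mutants 1, 2 and 6. The lowest control stood well above the highest mutant. The means were 1718 ± 199 and 864 ± 92.0, a log2 difference of -0.99 (SE 0.137).

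The choice of these genes rested on those values. In the fit over all genes, limma on log2(normalized read count + 1) with genes of a mean of at least 10, 4 of 13583 genes (0.0294%) were called lower in the E14.5 mutants at a Benjamini-Hochberg adjusted p under 0.05, and 3 of these 4 are the genes described here. The fourth was *Neurod6*, a transcription factor gene of projection neurons, at 1637 ± 214 in mutants and 2979 ± 134 in controls (log2 difference -0.87). The next genes, just outside the threshold, were *Sox5* at -0.73, *Ube2ql1* at -0.82 and *Fam49a* at -0.79. Lack of overlap alone was common, since 6.71% of the 13583 genes had all 3 mutants below all 3 controls. By size of the log2 difference *Mc4r*, *Sla* and *Mpped1* stood at places 24, 31 and 88 from the lowest.

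Cell types cannot be separated in these libraries, so that fewer cells of a type and less RNA per cell cannot be told apart. The summed level of the 20 projection neuron genes was also lower in E14.5 mutants, at 46472 to 49823 against 59472 to 62024 in controls, without overlap, and the mutant mean was 79.0% of the control mean. Gene by gene, 18 of the 20 had a log2 difference below 0, with a list median of -0.35 against 0.01 over all genes, and 1, *Neurod6*, passed the test. The summed level of 8 intermediate progenitor markers was 6621 to 6921 in mutants and 7197 to 7588 in controls, without overlap. That of 10 apical progenitor markers was 10841 to 12493 against 10450 to 11121, with overlap, and none was called in either list. Markers of other cells differed too: the summed level of 11 microglia markers was 920 to 1122 in mutants and 500 to 555 in controls, with *Cx3cr1* called higher, and that of 6 Cajal-Retzius markers was 1139 to 1515 against 717 to 945 with none called. Of the hypothalamus markers 3 of 8 were tested and 0 passed, with *Sim1* at 8.61 to 60.7 in mutants and 1.18 to 19.2 in controls and *Otp* at 10.96 to 65.1 against 8.71 to 12.2. Of the liver markers 8 of 10 were tested, all 8 were below 0 (median log2 difference -3.61) and 0 passed, and their sum without *Ttr*, which choroid plexus also makes, was 58.7 to 85.0 in mutants and 65.9 to 1106 in controls. The part of these cells in the differences was not tested. The only male mutant, 6, had 40.7, 38.4 and 821 for the 3 genes. Since all controls were male, a fit with a sex term compares mutant 6 alone with the controls. It gave differences of -1.88, -1.41 and -1.06 for *Mc4r*, *Sla* and *Mpped1*.

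Of 56 listed partners and relatives of these 3 genes, 34 were tested between genotypes at E14.5 and 0 passed. Of the melanocortin ligand and processing genes 3 of 6 had enough reads to be tested and 0 passed, of the receptors and accessory proteins 3 of 9 were tested and 0 passed, and of the Gs and cAMP genes 12 of 13 were tested and 0 passed. Around *Sla*, 2 of 4 paralog and *Cbl* genes, 6 of 10 Src and *Syk* family kinases and 6 of 11 receptors and signalling partners were tested, and 0 passed in each. Of the metallophosphoesterase relatives of *Mpped1*, 2 of 3 were tested and 0 passed. Before adjustment, 5 of these 34 tests had a limma p under 0.05, as did 9.1% of the 13583 genes. They were *Cbl* and *Cblb* at -0.45, *Sdc3* at -0.57 and *Mpped2* at -0.49, and in the other direction *Vav3* at 0.61.

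**Figure D2:**
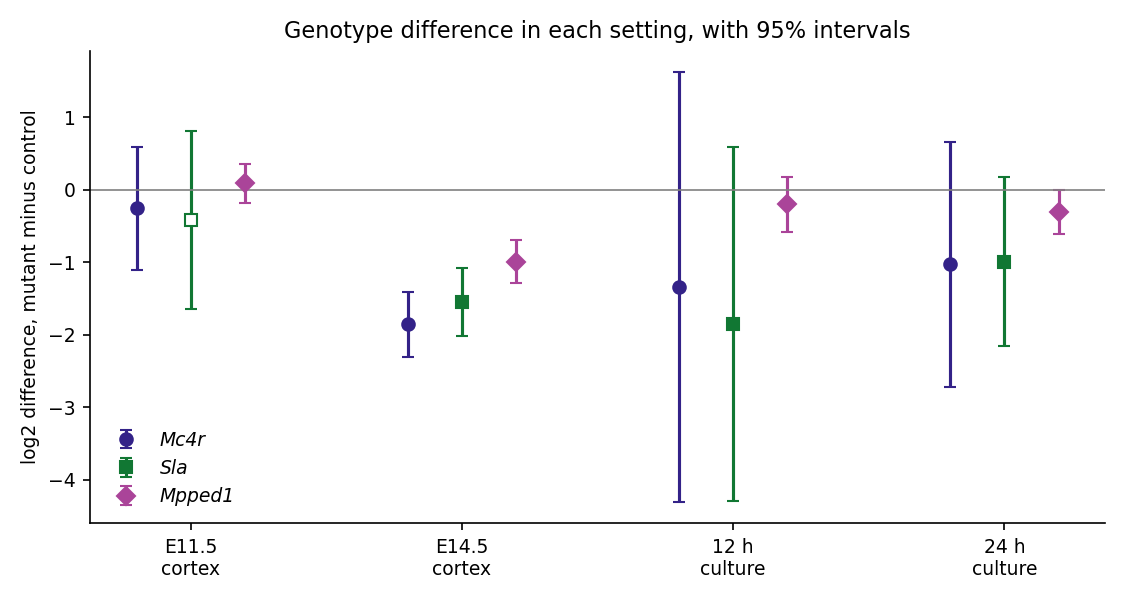
Difference between genotypes, mutant minus control, in log2(normalized read count + 1) for *Mc4r* (circles), *Sla* (squares) and *Mpped1* (diamonds) in each setting, with 95% intervals from limma. The open square is *Sla* at E11.5, which was under the filter and has no adjusted p; at E14.5 the 3 genes were chosen for their difference, and in the other settings the intervals of *Mc4r* and *Sla* reach past 0.

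At E11.5, in embryos that had no part in the choice, no genotype difference passed the test. *Mc4r* was at 17.1, 17.6 and 13.2 in controls D, E and F and at 12.9, 8.92 and 19.5 in mutants A, B and C. The groups overlapped, and the highest value was a mutant one. Its log2 difference was -0.25 (SE 0.381, 95% interval -1.10 to 0.59, limma adjusted p = 0.877). *Sla* was at 8.06, 4.18 and 8.55 in controls D, E and F and at 3.23, 5.58 and 5.77 in mutants A, B and C, that is at 5 to 11 reads where whole reads could be recovered. The groups overlapped, the mean of 5.89 was under the filter, and the log2 difference of -0.42 had an interval of -1.65 to 0.81, which is wide at these few reads. *Mpped1* was at 333, 350 and 382 in controls D, E and F and at 409, 381 and 342 in mutants A, B and C, again with the highest value in a mutant. Its log2 difference was 0.09 (SE 0.121, 95% interval -0.18 to 0.36, limma adjusted p = 0.866). The exact two-sided permutation test gave p = 0.6, 0.3 and 0.5 for *Mc4r*, *Sla* and *Mpped1*. Over all genes 2 of 13406 (0.0149%) were called between genotypes at E11.5, and of the projection neuron list 0 of 20 passed, with 17 of 20 below 0 and a median of -0.22 against 0.02 over all genes.

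With age *Mc4r* and *Mpped1* rose, and *Sla* is described without a test. *Mc4r* went from 8.92 to 19.5 over the 6 E11.5 cortices to 34.2 to 172 over the 6 E14.5 cortices, so that the lowest E14.5 library, a mutant, was above the highest E11.5 library. The difference, averaged over both genotypes, was 2.39 on the log2 scale (SE 0.197, limma adjusted p = 1.117e-07), and the mean over 6 libraries was 6.56 times that at E11.5. *Sla* went from 3.23 to 8.55 up to 31.6 to 121, also without overlap, a difference of 3.20 (SE 0.232) and a mean 11.8 times as high. Its E11.5 mean of 5.89 was under the filter, so that it entered this comparison only through the age at which it is high and was chosen, and its difference is given without a test. *Mpped1* went from 333 to 409 up to 802 to 1896, a difference of 1.73 (SE 0.0876, adjusted p = 7.25e-10) and a mean 3.53 times as high. Over all 13650 genes tested 24.1% were called higher and 29.5% lower, and how many had no overlap between ages was not counted. The exact permutation of age within genotype gave p = 0.005 for *Mc4r* and for *Mpped1*, the smallest it can give, and 0.015 after adjustment over 9 such tests. In controls the E14.5 mean of *Mc4r* was 9.59 times the E11.5 mean, that of *Sla* 15.0 times and that of *Mpped1* 4.85 times, and in mutants these were 3.05, 7.15 and 2.29 times. The gap between these holds the E14.5 contrast that chose the genes and was not tested.

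The projection neuron genes moved the same way. Of the 20, 18 rose with age and 0 fell, with a median log2 difference of 1.55 against -0.08 over all genes. *Neurod6* rose by 6.11, *Neurod2*, a related transcription factor gene, by 4.58, and *Sox5*, which controls the timing of deep-layer neurons, by 1.40. Within the list 3 genes had a larger difference than *Sla*, 4 than *Mc4r* and 9 than *Mpped1*.

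The signalling genes around *Mc4r* were mixed. Of 3 ligand and processing genes tested, *Pcsk2*, a convertase that cuts *Pomc*, rose by 1.55 (adjusted p = 7.61e-06) and *Cpe*, a carboxypeptidase that trims peptide hormones, by 0.77 (adjusted p = 4.02e-05), while *Pomc* fell by 0.90 (adjusted p = 0.00298) from a mean of 26.6 and 28.2 in E11.5 mutants and controls to 12.4 and 15.7 at E14.5. The other melanocortin receptor genes *Mc1r*, *Mc2r*, *Mc3r* and *Mc5r* and the accessory genes *Mrap* and *Mrap2* had means of 0 to 6.31 in every group and were not tested. *Sdc3*, a syndecan that acts as a coreceptor in feeding circuits, rose by 1.26. Of 12 Gs and cAMP genes tested 7 rose, among them *Gnal*, a Gs-like alpha subunit, by 2.90 and *Adcy1*, an adenylyl cyclase of neurons, by 1.80, and 1 fell, *Prkaca*, the catalytic subunit of protein kinase A, by 0.63. Around *Sla* both *Cbl* ligase genes tested fell, *Cbl* by 0.68 (adjusted p = 8.3e-05) and *Cblb* by 0.65 (adjusted p = 0.000492). Of 6 kinases tested *Fyn* rose by 0.83 and *Lyn*, *Lck* and *Syk* fell, *Lyn* by 0.66. *Kit*, a receptor tyrosine kinase, rose by 1.27 and *Pdgfra*, a receptor of mesenchymal and oligodendrocyte lineage cells, fell by 1.44. *Mpped2*, a relative of *Mpped1*, rose by 0.63 (adjusted p = 0.000241).

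**Figure D3:**
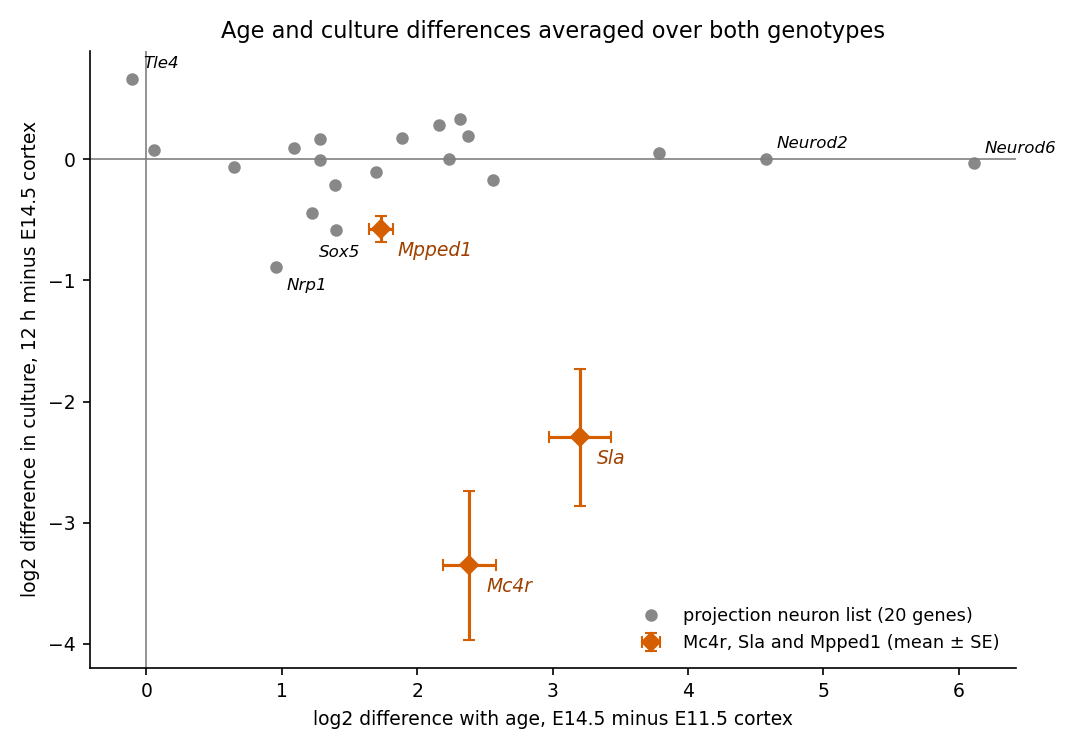
Log2 difference between 12 h culture and E14.5 cortex (vertical axis) against that between E14.5 and E11.5 cortex (horizontal axis), averaged over both genotypes, for the 20 projection neuron genes (grey circles) and for *Mc4r*, *Sla* and *Mpped1* (diamonds, with SE). *Mc4r* and *Sla* lie below every gene of the list in culture, and *Mpped1* lies beside *Sox5*.

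In culture all 3 genes fell. Every one of the 6 embryos had a lower level after 12 h than in its own cortex, for each gene. *Mc4r* was at 29.9, 2.35 and 18.2 in the 12 h cultures of controls 3, 4 and 5 and at 13.6, 7.37 and 0 in those of mutants 1, 2 and 6, with 1 culture above the E11.5 range and 3 below it. These cultures hold 0 to 24 reads of it. For mutant 6, 0 among 10620164 reads allows a level of up to 2.69. The difference from cortex, averaged over both genotypes, was -3.35 (SE 0.614, limma adjusted p = 0.000873), and mean cortex held 8.19 times the 12 h level. *Sla* was at 18.9, 18.8 and 32.6 in controls 3, 4 and 5 and at 11.7, 21.0 and 0 in mutants 1, 2 and 6, with the same culture at 0. It fell by 2.29 (SE 0.566, adjusted p = 0.00677), and mean cortex held 4.04 times the 12 h level. Without the 12 h culture of mutant 6 the differences were -2.77 for *Mc4r* and -1.62 for *Sla*, and both passed. *Mpped1* was at 804, 800 and 1031 in controls 3, 4 and 5 and at 874, 651 and 766 in mutants 1, 2 and 6. It fell by 0.58 (SE 0.109, adjusted p = 0.00111), and mean cortex held 1.57 times the 12 h level. The transcript *Gm42418*, which overlaps ribosomal RNA sequence, took 34.8% and 32.7% of reads in the 12 h cultures of control 4 and mutant 6. It took 10.7 to 25.6% in the other 12 h cultures and 9.78 to 15.0% in the E14.5 cortices. Its part in the falls was not tested. Over all genes 16.1% of 13601 were called lower at 12 h. Of the 13601, 1.04% had a log2 difference below that of *Mc4r*, 2.45% below that of *Sla* and 20.5% below that of *Mpped1*. How many were lower in all 6 embryos was not counted. The exact sign-flip test over the 6 embryos gave p = 0.03125 for each gene, the smallest it can give, and 0.0402 after adjustment over 9 tests.

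The projection neuron list did not follow *Mc4r* and *Sla* in culture. Its summed level over the 6 embryos was 101% of that in cortex, 3 of 20 genes fell (*Sox5* by 0.59, *Tubb3* by 0.45 and *Nrp1* by 0.89), 1 rose (*Tle4* by 0.66), and the median log2 difference was 0.00 against -0.06 over all genes. The list spanned -0.89 to 0.66. *Mc4r* at -3.35 and *Sla* at -2.29 were below all 20 of its genes, and *Mpped1* at -0.58 was below all but 2, *Nrp1* and *Sox5*. Other cell markers moved in both directions. Of the endothelial markers 6 of 6 fell, with a median of -4.31, but *Cdh5* and *Cldn5* among them passed the filter only through cortex. The microglia markers also passed the filter only through cortex. Their sum went from 500 to 1122 in cortex to 9.85 to 53.5 at 12 h. Of 8 erythroid markers 7 rose, with a median of 1.31, and of 9 interneuron and ventral markers tested 3 rose (*Gad1*, *Gad2* and *Lhx6*) and 1 fell (*Dlx1*), with a median of 0.30, where 14.1% of all genes were called higher. The part of these cells in the falls of the 3 genes was not tested. Among the signalling genes, *Cpe* fell by 0.44, *Sdc3* by 0.72, *Gnal* by 0.98 and *Kit* by 0.94, while *Lyn* at -3.66 and *Pdgfra* at -3.25 passed the filter only through cortex. *Vav3*, a guanine nucleotide exchange factor, rose by 1.99 and *Mpped2* by 0.63 (adjusted p = 0.00252), against the direction of *Mpped1*. *Cbl* and *Cblb* did not pass, at 0.17 and -0.0017 (adjusted p = 0.367 and 0.995).

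**Figure D4:**
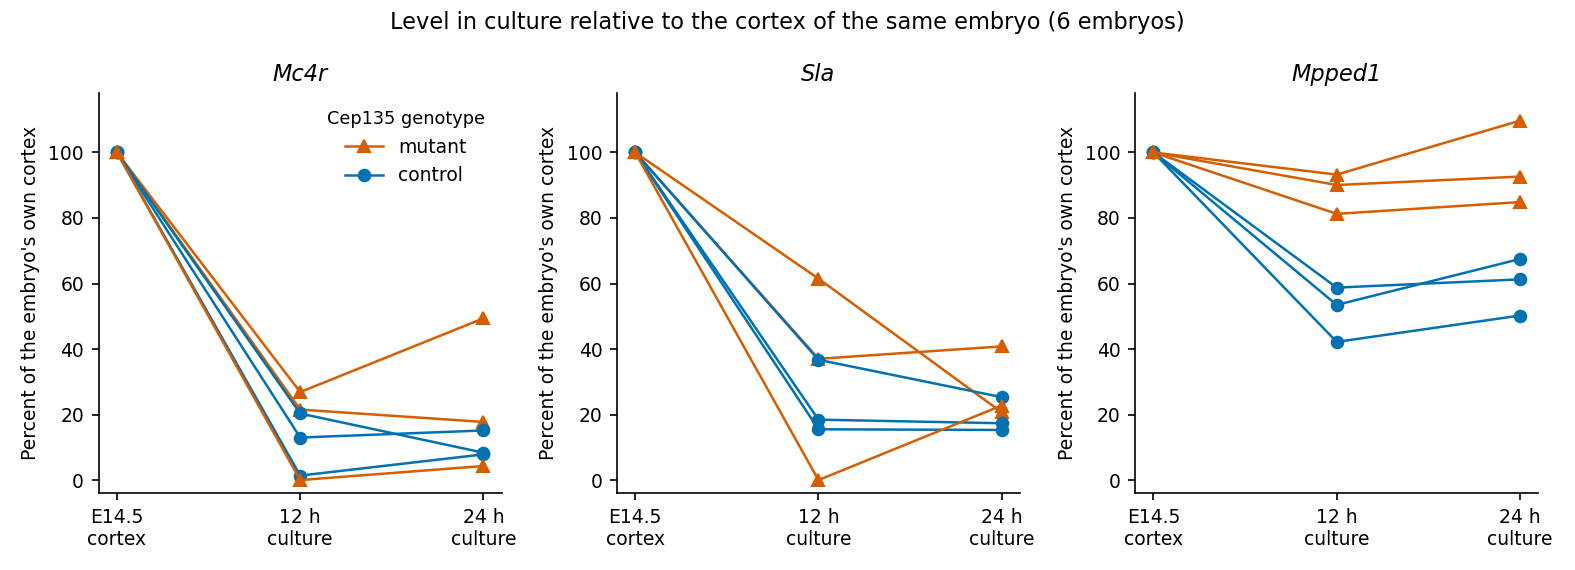
Level of *Mc4r*, *Sla* and *Mpped1* after 12 h and 24 h in culture as a percent of the level in the cortex of the same embryo (6 embryos; controls as circles, mutants as triangles). For *Mpped1* the controls are at 42.2 to 58.8% at 12 h and the mutants at 81.3 to 93.2%; the values share the E14.5 cortices that chose the genes.

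The level of *Mpped1* in culture was also set against the cortex of the same embryo, where the gene was chosen for its genotype difference. The 12 h level was 53.5%, 42.2% and 58.8% of cortex in controls 3, 4 and 5 and 90.1%, 81.3% and 93.2% in mutants 1, 2 and 6, so that the groups did not overlap. At 24 h it was 67.5%, 50.2% and 61.3% in the controls and 92.6%, 84.9% and 109.7% in the mutants. For *Mc4r* the 12 h shares were 1.37 to 20.3% in controls and 0 to 26.9% in mutants, and for *Sla* 15.5 to 36.7% and 0 to 61.5%, with overlap in both. Since the denominators are the cortices on which the genes were chosen, these shares are a description. How many of all genes had shares without overlap between genotypes was not counted.

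In the 12 h cultures no genotype difference passed the test. *Mc4r*, at 41.7% of control, had a log2 difference of -1.34 (SE 1.37, 95% interval -4.30 to 1.62, limma adjusted p = 0.916) and *Sla*, at 46.6% of control, one of -1.85 (SE 1.13, interval -4.30 to 0.59, adjusted p = 0.914). The groups overlapped for both. Without mutant 6 the differences were -0.18 and -0.50. With other single libraries left out they also moved, over -2.29 to -0.18 for *Mc4r*, where it stayed past the filter, and -2.73 to -0.50 for *Sla*. With the log2 share of *Gm42418* as a term they were -0.53 and -1.41, and neither passed. *Mpped1*, at 87.0% of control, had a difference of -0.20 (SE 0.178, interval -0.59 to 0.18, adjusted p = 0.916). Exact permutation gave p = 0.5, 0.3 and 0.4. With limma 0 of 13389 genes (0%) were called at 12 h, 650 had an unadjusted p under 0.05, and edgeR and DESeq2 on whole reads called 0 and 9.

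After 24 h *Sla* and *Mpped1* were lower in each mutant culture than in each control culture, and neither passed the test. *Sla* was at 17.8, 18.5 and 22.5 in controls 3, 4 and 5 and at 12.9, 7.09 and 8.73 in mutants 1, 2 and 6, with means of 19.6 ± 2.55 and 9.57 ± 3.00 and a log2 difference of -0.99 (SE 0.544, interval -2.16 to 0.17, limma adjusted p = 0.562). The reads behind these *Sla* values were 13, 11 and 18 in controls and 18, 7 and 10 in mutants, with overlap. The groups were apart only after division by the size factor, since each read counted for more in the shallower control libraries. Whether this gap in *Sla* exceeds counting error was not tested. *Mpped1* was at 1015, 952 and 1075 in controls and at 899, 680 and 901 in mutants, with means of 1014 ± 61.5 and 827 ± 127 and a difference of -0.30 (SE 0.140, interval -0.60 to -0.0055, unadjusted p = 0.0465 in limma, adjusted p = 0.46). Exact permutation gave p = 0.1 for both, the smallest that 3 against 3 allows, and 0.45 after adjustment over 9 tests. All mutants were below all controls for 9.06% of the 13300 genes tested, and 36 (0.271%) were called in either direction. *Mc4r* was at 12.3, 13.5 and 21.3 in controls and at 25.1, 6.07 and 1.75 in mutants, with the highest and the lowest cultures both among the mutants. Its difference was -1.03 (SE 0.791, interval -2.72 to 0.67, adjusted p = 0.703, exact p = 0.4), and it was -0.26 without the 24 h culture of mutant 6. With a sex term, which leaves only mutant 6 against the male controls, it was -2.56.

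Several properties of the 24 h libraries moved with genotype. Mutant libraries held 7903426 to 11645213 reads and control libraries 4732781 to 5709443, and the transcript *Gm42418*, which overlaps ribosomal RNA sequence, took 20.5 to 23.1% of reads in mutants and 6.26 to 13.9% in controls. *Ttr*, a gene of choroid plexus and liver, was at 4826 to 16344 in mutants and 764 to 3509 in controls, and the sum of the 9 other liver markers was 122 to 411 against 11.3 to 27.0, with *Ttr*, *Alb* and *Serpina1e* called higher. Their part in the differences of *Sla* and *Mpped1* was not tested. With the log2 share of *Gm42418* as a term the differences were -0.84 and -0.17, and neither passed. That share did not overlap between genotypes at 24 h, so the term and genotype can hardly be told apart. With a sex term, which leaves only mutant 6 against the male controls, the differences were -1.08 and -0.17. The projection neuron sum was 45552 to 53014 in mutants and 58700 to 63182 in controls, a mutant mean at 80.3% of control, and *Mpped1* was at 81.5% and *Sla* at 48.8%. Of the list 3 of 20 were called lower, *Neurod6* at -0.71, *Fezf2*, which specifies corticospinal neurons, at -0.84, and *Mef2c* at -0.69, with a median of -0.29 against -0.01 over all genes. The sum of 10 apical progenitor markers was 12722 to 14013 in mutants against 9880 to 11267 in controls, with none called.

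From 12 h to 24 h *Mpped1* was higher in 6 of 6 embryos, by 0.16 on the log2 scale (SE 0.111, 95% interval -0.07 to 0.40). The exact sign-flip test gave p = 0.03125 (0.0402 after adjustment over 9 tests), while limma gave an adjusted p = 0.696, or 0.532 with the embryo as a block. How many of all genes were higher in 6 of 6 embryos was not counted. *Mc4r* was higher at 24 h in 4 of 6 embryos (0.53, SE 0.800, limma adjusted p = 0.895, exact p = 0.375) and *Sla* in 2 of 6 (0.22, SE 0.641, limma adjusted p = 0.949, exact p = 0.875), and without the 12 h culture of mutant 6 both differences changed sign, to -0.05 and -0.45. Over all genes 34 of 13359 (0.255%) were called between the culture times, or 96 with the embryo as a block. The genotype difference itself did not pass a test of change from 12 h to 24 h for any of the 3, at 0.31 (SE 1.60), 0.86 (SE 1.28) and -0.10 (SE 0.222) for *Mc4r*, *Sla* and *Mpped1*, each with a limma adjusted p = 1. In that test limma called 0 of 13359 genes (0%), 318 had an unadjusted p under 0.05, and edgeR and DESeq2 called 0 and 0.

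Across settings, the order of the levels differed between the genes. *Mc4r* was highest in E14.5 cortex at a mean of 97.5, followed by E11.5 cortex at 14.9, 24 h culture at 13.3 and 12 h culture at 11.9, and the last 3 settings overlapped with each other. *Sla* was highest in E14.5 cortex at 69.5, then in 12 h culture at 17.2, 24 h culture at 14.6 and E11.5 cortex at 5.89, the cultures overlapping each other and, through the culture at 0 and one at 7.09, the E11.5 cortices. *Mpped1* had no such drop to the E11.5 level: its means were 1291 in E14.5 cortex, 920 at 24 h, 821 at 12 h and 366 at E11.5, and every culture, from 651 upward, was above every E11.5 cortex, at 409 or less. How many of all genes had every culture above every E11.5 cortex was not counted.

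The genes were also ranked by likeness of pattern, as Pearson's r of log2(normalized read count + 1) over the 24 libraries among 13678 genes with a mean of at least 10. The libraries share embryos and settings, the E14.5 genotype contrast that chose the 3 genes is part of the pattern, and *Mc4r* and *Sla* rest on few reads outside E14.5 cortex, so these are descriptions. *Sox5* was most like *Mpped1*, at 0.966 over the 24 libraries and at 0.901 after the mean of each setting was taken out, first in both rankings. It was followed by *Neurl1b*, an E3 ubiquitin ligase gene of the Notch pathway, at 0.951, and by *Igfbpl1*, *Nrep* and *Nfix*, a nuclear factor I gene, at 0.932 to 0.934. With the setting means taken out the next were *Ier5*, *Dpy19l1*, *Elmod1* and *Fam49a*, at 0.811 to 0.838. For *Sla* the highest were *Gfra4*, a receptor of the GDNF family, at 0.896, *Clvs1* at 0.894, *Nxph3*, a neurexophilin, at 0.884, *Syndig1l* at 0.879 and *2810459M11Rik* at 0.877, and *Clvs1* was first, at 0.925, without the setting means. For *Mc4r* they were *Abcd2*, a peroxisomal transporter, at 0.849, *Tbc1d16*, *Ankrd6*, *Ppp1r1a*, a protein phosphatase inhibitor, and *Gfra4* at 0.813. Among themselves *Mc4r* and *Sla* had an r of 0.80, *Sla* and *Mpped1* 0.72, and *Mc4r* and *Mpped1* 0.43. Without the setting means these were 0.76, 0.47 and 0.51, values that the choice of the genes by their E14.5 contrast partly fixes.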

How the data were processed

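RNA from 24 libraries was sequenced from the 3′ end (QuantSeq 3′ FWD kit). The values are signal in the form of normalized read counts: per the submitters' notes, the authors checked reads with FastQC 0.11.7, aligned them to GRCm38 with TopHat2 2.0.10 (SAMtools 0.1.19, Bowtie 1.0.0), counted them by strand with HTSeq 0.6.1 and deposited counts divided by DESeq2 size factors. Whole reads were recovered from 23 of the 24 columns.

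Genotypes and settings were compared with limma 3.58.1 (trend) in R 4.3.3 on log2(value + 1). Genes whose mean in the compared libraries was under 10 were left out, p-values were adjusted by Benjamini-Hochberg over the rest, and 0.05 was the threshold. A fold on this scale understates the change of low genes. Exact two-sided permutation tests were run in Python 3.11.15 with scipy 1.17.1. edgeR 4.0.16 and DESeq2 1.42.0 were alternatives on whole reads. The code was tested on simulated data. The genes and lists were chosen with earlier results of these data known. Other genes were named as list members passing a test, as neighbours of the E14.5 threshold, or as the 5 most alike in pattern. Cortex and cultures were paired by embryo in the labels: deviations of 18 same-embryo pairs correlated at -0.114 to 0.235 (median 0.137, 12 above 0.1). Intervals and floors from reads cover counting error only. The columns of other samples numbered 0. Promoter windows on chromosome 18 were left out.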

Additional observations from a re-analysis of the deposited data

How the results depend on the processing

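The age differences of *Mc4r* and *Mpped1* and the culture differences of *Mc4r*, *Sla* and *Mpped1* kept their direction and stayed past the threshold under each alternative run, at 2.13 to 2.52 and 1.69 to 1.79 with age and at -4.02 to -2.63, -2.88 to -1.62 and -0.69 to -0.52 in culture. With the embryo as a replicate block the culture differences of *Mc4r*, *Sla* and *Mpped1* had limma adjusted p = 0.00055, 0.00489 and 0.000967, and genes called between 12 h and 24 h went from 34 to 96. The block changed no call of the 3 genes. The E14.5 genotype differences that chose them ran from -2.00 to -1.72, -1.66 to -1.41 and -1.08 to -0.91. At E14.5 and in the cultures a sex term leaves only mutant 6 against the controls, which were all male. At 12 h, where mutant 6 had 0 reads of *Mc4r* and *Sla*, their differences were then -3.65 and -4.56. At 24 h those of *Mc4r* and *Mpped1* were -2.56 and -0.17.

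Directions that turned belonged to differences that did not pass. The *Mc4r* genotype difference at E11.5 ran from -0.52 to 0.0017 when each library was left out. Between culture times *Sla* was at -0.0147 with a pseudocount of 5, -0.20 with quantile scaling, -0.22 with edgeR and -0.23 with DESeq2, and at -0.45 to 0.66 with a library left out, while *Mc4r* was at -0.0073 with quantile scaling and -0.0524 to 0.916 with a library left out. The change of the genotype effect was at -0.13 for *Mc4r* with quantile scaling, and with a library left out at -0.84 to 1.27 for *Mc4r*, -0.49 to 1.74 for *Sla* and -0.22 to 0.0309 for *Mpped1*. The cause was not tested.

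Counts of called genes moved more. At E11.5 the 2 calls became 17 with no filter, 1 with a mean of at least 50, 1 with TMM, 0 with quantile scaling, 8 in a fit of all 24 libraries, 4 with a sex term, 0 with a block for the name prefix in the titles, and 0 to 8 with a library left out. At E14.5 the 10 calls became 31 with no filter, 64 with DESeq2 and 1 to 74 with a library left out. At 12 h the 0 calls became 1 with a pseudocount of 5, 9 with no filter and 1 with quantile scaling. They became 29 in the fit of 24, 1 with a *Gm42418* term, 9 with DESeq2 and 0 to 7 with a library left out. At 24 h the 36 calls became 140 with no filter and 182 with DESeq2. They became 0 with a *Gm42418* term and 7 to 46 with a library left out. Between culture times the 34 calls became 159 in the fit of 24, 150 with DESeq2 and 15 to 60 with a library left out. Count tools were not run where E11.5 libraries enter, since 1 of these gave no whole reads, and a mean of at least 50 could not be run for *Mc4r* and *Sla* where they fell under it.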
